A study of Mus musculus with 24 samples.

Results

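The regions described here are 566 of the 144411 accessible chromatin regions (peaks) counted in mouse bone marrow-derived macrophages. In wild-type cells they lost accessibility after IL4 and stayed within a set limit after the glucocorticoid dexamethasone (Dex). ATAC-seq reads out open DNA through the cuts that a transposase makes in it. Levels are given in CPM, the count of a peak scaled to a library total of 1000000 counts. The peaks were chosen on log2(CPM + 0.5), averaged over the libraries of a group. A peak was taken when wild-type IL4 lay at least 0.8 below wild-type vehicle, when wild-type Dex lay within 0.5 of vehicle, and when all 4 IL4 libraries were below all 4 vehicle libraries. These wild-type values therefore describe the choice and support nothing. The GRIP1-deficient libraries had no part in it, and every test below was made in them.

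Groups of 4 libraries were compared, 6 in all. The macrophages came from male mice aged 8 to 10 weeks and were grown for 5 days in L-cell conditioned medium. Wild-type (WT) cells carried GRIP1wt/wt and knockout (KO) cells GRIP1fl/fl, and LysM-Cre+/+, a recombinase driven from the myeloid lysozyme M locus, was present in both, so it is shared by every group. GRIP1, the product of Ncoa2, is a coregulator that nuclear receptors such as the glucocorticoid receptor recruit to DNA. Cells received vehicle, 100 nM Dex or 10 ng/ml IL4 for 24 h by the sample titles; the treatment label of the vehicle samples gives 25 h. Whether a group's libraries stem from separate mice or cultures is not given, and p-values then measure the spread between these libraries alone.

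IL4 binds its receptor on macrophages and activates the transcription factor STAT6, which drives the alternative activation programme used in tissue repair and parasite defence. STAT6 is known both to open enhancers of its target genes and to lower the activity of other enhancers, many of them near inflammatory genes. Dex acts through the glucocorticoid receptor, which represses many inflammatory genes as well, by a separate route. A loss of ATAC-seq signal means that fewer molecules were cut at a site, and a gene named here is the one with the nearest listed start site (TSS), which does not show that the peak regulates it.

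The 566 peaks lie mostly away from promoters, and no genome sequence of the files' build was used here, so sequence is shown for 6 promoters whose 250 bases before the start site lie inside one of the peaks. Fpr1, C5ar1 and Cx3cr1 encode receptors of innate immune cells, and Irak3 an inhibitory protein of the Toll-like receptor pathway. Bnip3 had the highest vehicle level among the peaks near a start site, and Slc4a4 is shown as the promoter that did not fall in KO cells. The sequences are from RefSeq (GRCm38, the assembly also called mm10), 5′ to 3′ on the strand of the gene, with capitals marking matches, on either strand, to 10 motifs: PU.1 (GAGGAAGT), AP-1 (TGANTCA), C/EBP (TTGCNNAA), NF-kB (GGGAA and CC, 3 bases apart), an interferon element (TTTC and TTTC, 2 bases apart), STAT (TTC and GAA, 3 bases apart), STAT6 (TTC and GAA, 4 bases apart), the MITF and TFE E-box (CACGTG), KLF and SP (GGGCGG) and RUNX (TGTGGT).
Fpr1 (chr17:17883940-17884189, minus strand): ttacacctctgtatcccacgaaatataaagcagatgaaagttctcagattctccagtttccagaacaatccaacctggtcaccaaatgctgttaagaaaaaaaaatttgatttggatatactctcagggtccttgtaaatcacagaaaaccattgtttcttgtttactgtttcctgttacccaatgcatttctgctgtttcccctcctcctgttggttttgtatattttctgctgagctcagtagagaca
C5ar1 (chr7:16259339-16259588, minus strand): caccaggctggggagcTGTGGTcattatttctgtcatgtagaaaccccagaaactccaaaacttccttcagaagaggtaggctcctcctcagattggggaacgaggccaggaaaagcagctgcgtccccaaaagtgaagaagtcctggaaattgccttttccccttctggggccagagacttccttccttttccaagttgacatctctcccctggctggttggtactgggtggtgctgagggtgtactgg
Cx3cr1 (chr9:120068297-120068546, minus strand): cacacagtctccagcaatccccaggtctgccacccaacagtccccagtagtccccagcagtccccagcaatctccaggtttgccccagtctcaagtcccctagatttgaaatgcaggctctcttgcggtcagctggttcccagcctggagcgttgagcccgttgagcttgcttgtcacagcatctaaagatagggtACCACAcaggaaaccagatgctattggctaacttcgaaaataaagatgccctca
Irak3 (chr10:120201598-120201847, minus strand): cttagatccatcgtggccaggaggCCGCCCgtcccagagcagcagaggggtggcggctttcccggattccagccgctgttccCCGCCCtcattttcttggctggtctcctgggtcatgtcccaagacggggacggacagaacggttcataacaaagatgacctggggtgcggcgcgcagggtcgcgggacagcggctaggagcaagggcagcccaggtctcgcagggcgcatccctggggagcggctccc
Bnip3 (chr7:138909507-138909756, minus strand): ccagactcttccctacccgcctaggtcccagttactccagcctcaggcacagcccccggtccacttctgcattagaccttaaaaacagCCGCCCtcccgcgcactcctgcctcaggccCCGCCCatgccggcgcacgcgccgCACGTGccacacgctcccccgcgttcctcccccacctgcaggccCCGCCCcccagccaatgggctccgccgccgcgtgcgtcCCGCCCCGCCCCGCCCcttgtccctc
Slc4a4 (chr5:88887010-88887259, plus strand): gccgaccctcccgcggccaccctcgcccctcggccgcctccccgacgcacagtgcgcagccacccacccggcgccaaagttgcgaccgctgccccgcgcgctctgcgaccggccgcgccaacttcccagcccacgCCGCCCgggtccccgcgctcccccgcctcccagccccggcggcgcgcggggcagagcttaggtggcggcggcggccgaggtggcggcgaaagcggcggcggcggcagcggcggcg

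The Fpr1 window held none of these letters. C5ar1 and Cx3cr1 each held 1 RUNX match, and Irak3 held 2 KLF and SP matches. Bnip3 held 6 KLF and SP matches, the last 3 of which overlap, and 1 E-box match. Slc4a4 held 1 KLF and SP match, a motif found in Irak3 and Bnip3 as well. The part of these letters in the changes was not tested. Over 33 promoter windows that lie fully inside the peaks, 1 per gene, 21 (63.6%) held the KLF and SP motif, against 32.7% of 32817 promoter windows of RefSeq. RUNX letters were in 18.2% against 14.0%, NF-kB letters in 9.09% against 4.95%, PU.1 letters in 3.03% against 2.44%, C/EBP letters in 3.03% against 9.57% and AP-1 letters in 3.03% against 6.75%. None of the 33 held the STAT motif (7.01% of all windows), and 1 held the STAT6 motif (3.03% against 5.85%). The E-box was in 1 (3.03% against 6.02%) and the interferon element in none (2.97% of all windows). Of 4 further motifs, not marked in the sequences, EGR (GCGTGGGCG) was in 1 (3.03% against 0.536%), MEF2 (CTA and TAG, 4 bases apart) in 1 (3.03% against 3.20%), and the glucocorticoid receptor motif (ACA and TGT, 3 bases apart; 5.84%) and the CTCF core (0.0518%) in none. A match is a stretch of letters and not a measured binding site, and the comparison takes in promoters that are closed in macrophages.

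The library totals ran from 5820149 to 21939330 counts over all peaks, the lowest being WT Dex replicate 2; without that library 597 peaks met the rule, 545 of them among the 566. All 9 macrophage markers given here had a peak within 1 kb of their start, from 2.58 to 66.3 CPM over the 6 group means (Adgre1, Csf1r, Cd68, Itgam, Spi1, Mertk, Cd14, Fcgr1 and Lyz2). Dendritic cell markers had one at 3 of 4 genes, the highest being Zbtb46 at 20.0 to 22.7 CPM. So did 1 of 7 T and NK cell markers (Klrb1c, 8.55 to 22 CPM), 1 of 4 neutrophil markers (S100a8, 16.0 to 24.3 CPM), 1 of 3 mast cell and basophil markers, 1 of 3 erythroid markers and none of 3 fibroblast markers. An open promoter does not show that a gene is expressed, and the part of other cell types in the results was not tested. The peak at the Ncoa2 promoter averaged 76.2 to 91.3 CPM over the 6 groups; the labels do not place the deleted part, so this peak checks nothing about the deletion. In a population of cells, fewer open cells and a smaller opening in each cell cannot be told apart.

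IL4 lowered most of the 566 peaks in KO macrophages too. The median level of a peak was 5.43 to 5.71 CPM in the 4 KO vehicle libraries and 2.93 to 3.24 CPM in the 4 KO IL4 libraries. In KO Dex libraries it was 5.12 to 5.27 CPM. The KO IL4 medians thus lay below the KO vehicle medians without overlap, while the KO Dex medians lay just under the vehicle range. These levels are scaled by library totals alone, unlike the tests below, and the small Dex gap was not examined under other scalings. Taken peak by peak, the mean KO IL4 level had a median of 57.1% of the mean KO vehicle level. In the WT libraries, which chose the peaks, the same medians were 5.77 to 6.14 CPM with vehicle, 5.27 to 5.45 CPM with Dex and 2.54 to 3.00 CPM with IL4.

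**Figure D1:**
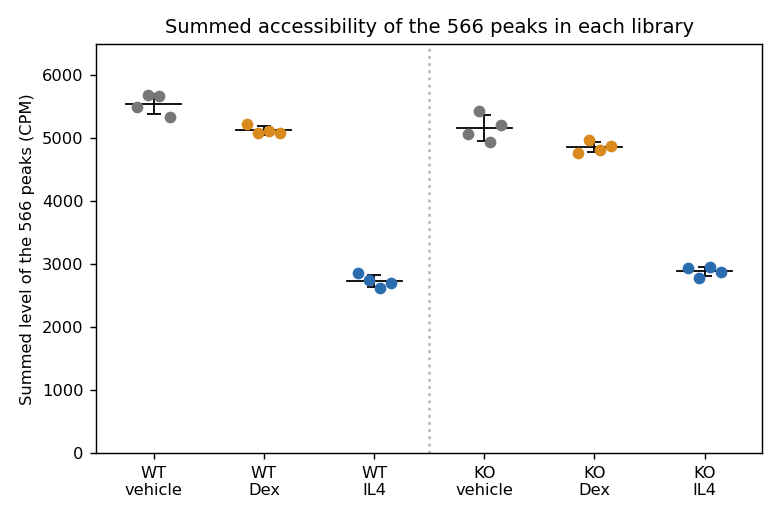
Summed level of the 566 peaks in each of the 24 libraries (vertical axis, CPM); points are libraries, horizontal lines are means of 4 libraries and bars are SD, with WT left and KO right of the dotted line. The 4 KO IL4 libraries sum to 2788 to 2953 CPM, all below the 4 KO vehicle libraries at 4940 to 5429 CPM; the WT libraries chose the peaks.

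Of the 566 peaks, 561 passed the filter on low counts and were tested with edgeR's quasi-likelihood test, with p-values adjusted over all 130103 tested peaks. In KO cells, 497 were lower with IL4 than with vehicle at an adjusted p below 0.05, 0 were higher, 64 were not called and 5 were not tested; at an unadjusted p below 0.05 the test gave 522 in either direction. Over all tested peaks 13.9% were called lower and 17.0% higher. The median log2 fold change of the 561 was -0.85 (quartiles -1.05 and -0.71, range -2.04 to 0.70), beside -0.02 for all tested peaks. Without a model, all 4 KO IL4 libraries lay below all 4 KO vehicle libraries at 429 of the 566 peaks (75.8%), against 9.05% of all peaks and 9.91% of the tested ones.

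On the scale of the rule, the KO difference was below 0 at 560 of the 566 peaks and at or under -0.8 at 207. The whole rule, applied to KO libraries in place of WT libraries, was met by 167 of the 566 and by 370 of all 144411 peaks. The 5 untested peaks had failed the filter. With no filter on low counts, 496 of the full 566 were called lower.

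**Figure D2:**
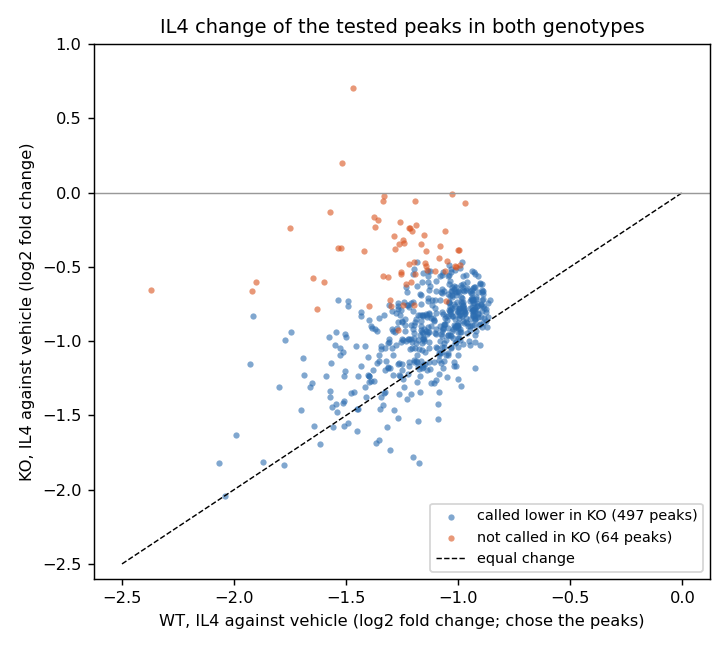
Log2 fold change of IL4 against vehicle in WT (horizontal axis, the contrast that chose the peaks) and in KO (vertical axis) for the 561 tested peaks; the dashed line marks equal change. The 497 peaks called lower in KO and the 64 not called are coloured apart, and 2 of the 561 peaks have a KO value at or above 0.

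The peaks that were not called in KO were mostly weak. Of the 64, 60 averaged under 4 CPM in KO vehicle and 36 under 2 CPM, and 62 had a fitted KO fold change below 0. All 201 peaks above 8 CPM in KO vehicle were called lower, as were 158 of 162 between 4 and 8 CPM, 106 of 130 between 2 and 4 CPM, and 32 of the 68 tested at or under 2 CPM. A missing call does not show that a peak kept its accessibility.

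Genotype differences at these peaks are given as values only, since the WT libraries chose the peaks. The median of KO vehicle minus WT vehicle on the rule's scale was -0.11 (0.03 over all peaks), and that of KO IL4 minus WT IL4 was 0.10 (0.01 over all peaks). Neither median is independent of the choice.

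Among receptors, the formyl peptide receptors stood at the head of the list. Fpr1 encodes a neutrophil and macrophage receptor for formylated bacterial peptides. Its promoter peak (chr17:17883712-17884389, 0.11 kb upstream of the TSS) read 9.39, 8.80, 8.74 and 8.98 CPM in KO vehicle, 5.52, 6.30, 4.74 and 4.99 CPM in KO Dex, and 3.55, 2.23, 1.57 and 1.76 CPM in KO IL4. The 3 KO groups did not overlap: vehicle was highest, Dex intermediate and IL4 lowest. The log2 fold change was -2.04 ± 0.19 (SE, n = 4 and 4) for IL4 against vehicle, with an edgeR adjusted p of 7.2e-13, the largest fall of the 561 tested peaks. For Dex against vehicle it was -0.68 ± 0.16 (edgeR adjusted p = 0.00142).

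The peak at the start of Fpr2, which binds formyl peptides and resolvin-type ligands, lies 0.215 kb inside the gene (chr17:17887799-17888281). It averaged 7.90 ± 0.713 CPM (SD, n = 4) in KO vehicle and 3.06 ± 0.886 CPM (SD, n = 4) in KO IL4. Its fold change was -1.44 ± 0.30 on the log2 scale (SE; edgeR adjusted p = 0.000831), and that for Dex was -0.40 ± 0.26 (edgeR adjusted p = 0.358). Both promoters lie in a stretch of 70 kb from Has1, a hyaluronan synthase gene, to Fpr2 on chromosome 17, which was singled out after its values were seen. It holds 16 tested peaks, 5 of them among the 566. All 16 were called lower in KO IL4 (median log2 fold change -0.999, range -2.04 to -0.28), and 4 of 16 in KO Dex. The 11 peaks that missed the WT rule were thus called lower in KO as well.

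C5ar1 encodes the receptor for complement C5a, a chemoattractant. Its promoter peak (chr7:16258870-16259625, 0.09 kb inside the gene) read 34.1, 37.3, 31.6 and 35.1 CPM in KO vehicle and 21.1, 20.4, 20.8 and 17.4 CPM in KO IL4. In KO Dex it read 40.4, 43.7, 39.1 and 40.7 CPM. The groups were again separate, but in another order than at Fpr1: Dex libraries were the highest and IL4 libraries the lowest. IL4 changed it by -0.85 ± 0.08 (log2, SE; edgeR adjusted p = 8.17e-16) and Dex by 0.29 ± 0.07 (edgeR adjusted p = 0.00202). KO IL4 against KO Dex was -1.14 ± 0.07 (log2, SE), a description with no test, since the opposite calls above fixed its direction.

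The promoter peak of Cx3cr1, the fractalkine receptor of monocytes and tissue macrophages, fell from 15.8 ± 2.30 to 8.16 ± 1.55 CPM (SD, n = 4 each; log2 fold change -1.001, edgeR adjusted p = 2.75e-11). Tlr1, which pairs with Tlr2 to sense bacterial lipopeptides, had a peak 9.55 kb downstream of its listed start that fell from 13.2 to 7.84 CPM (log2 fold change -0.80, edgeR adjusted p = 0.00181). In KO Dex the Tlr1 peak averaged 9.93 CPM, between them, and KO IL4 against KO Dex was not called there (edgeR adjusted p = 0.0553). All 4 peaks of the 566 at genes of a list of 34 chemokine, complement and formyl peptide receptor and chemokine genes were called lower in KO. Over that list 55 of 227 tested peaks were lower, 40 were higher and the median was -0.08. Over all tested peaks 13.9% were lower and 17.0% higher, the background for this list and those below. Since 497 of the 561 tested peaks were called lower, calls at all of a few peaks add little.

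**Figure D3:**
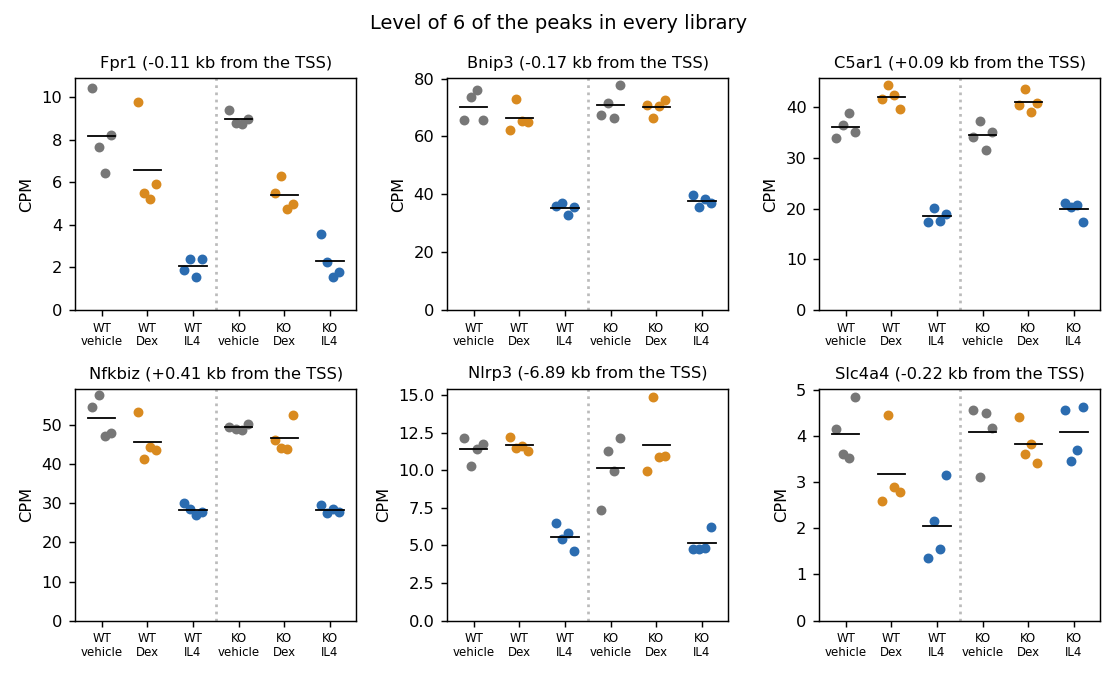
Level (vertical axis, CPM) of 6 peaks in every library, by genotype and treatment; points are libraries and lines are means of 4. Fpr1, Bnip3, C5ar1, Nfkbiz and Nlrp3 are lower in all 4 KO IL4 libraries than in any KO vehicle library, whereas the Slc4a4 promoter averages 4.09 CPM in both; the WT libraries chose the peaks.

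Genes of inflammatory signalling carried several of the peaks. Irak3 encodes an inhibitory kinase-like protein of the Toll-like receptor pathway. Its peak 12.8 kb inside the gene (chr10:120188594-120188875) read 5.71, 3.76, 3.44 and 4.26 CPM in KO vehicle and 2.43, 1.16, 0.83 and 2.00 CPM in KO IL4, with no overlap (log2 fold change -1.46 ± 0.31, SE; edgeR adjusted p = 0.000729). A peak 3.25 kb upstream changed by -1.02 ± 0.19 (edgeR adjusted p = 8.76e-06). Another, at the Irak3 start itself (chr10:120200977-120202643), changed by -0.66 ± 0.11 (edgeR adjusted p = 1.84e-05). In the 40 kb around the gene, also singled out after seeing the values, 7 of 12 tested peaks were called lower, so the fall was mixed with peaks that were not called.

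Nfkbiz encodes IkBζ, a nuclear cofactor of NF-kB needed for secondary response genes such as Il6. It had 3 of the peaks. The promoter peak (chr16:55820798-55822657) read 49.5, 49.0, 48.7 and 50.3 CPM in KO vehicle and 29.6, 27.5, 28.5 and 27.8 CPM in KO IL4. In KO Dex it read 46.1, 44.1, 44.0 and 52.5 CPM. Vehicle and Dex overlapped and IL4 was lower in every library; IL4 changed the peak by -0.85 ± 0.08 (log2, SE; edgeR adjusted p = 2.06e-16) and Dex by -0.03 ± 0.07 (edgeR adjusted p = 0.863). The peaks 45.5 kb and 134 kb from the start changed by -1.14 and -0.85 (edgeR adjusted p = 2.23e-07 and 0.000858). Of these the nearer one was also called lower with Dex (-0.46, edgeR adjusted p = 0.0413). Of the 25 other tested peaks nearest to Nfkbiz, 15 were called lower and 1 higher.

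The one peak assigned to Il6, a cytokine gene, lies 137.5 kb upstream of it (chr5:29875376-29875926). It read 4.82, 2.91, 3.97 and 3.63 CPM in KO vehicle, and 1.52, 1.70, 1.57 and 1.52 CPM in KO IL4 (log2 fold change -1.27 ± 0.20, SE; edgeR adjusted p = 3.57e-07). KO Dex, at 3.91, 3.42, 3.24 and 3.42 CPM, lay inside the vehicle range. Nlrp3, the sensor of an inflammasome, had a peak 6.89 kb upstream with 10.2 ± 2.09 CPM in KO vehicle and 5.14 ± 0.728 CPM in KO IL4 (SD, n = 4 each; log2 fold change -1.05, edgeR adjusted p = 1.61e-09). Irak2, a kinase of the same receptor pathway as Irak3, had a peak at -0.99 ± 0.20 (log2, SE; edgeR adjusted p = 0.000179).

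All 7 peaks at 4 genes of a list of 34 inflammatory and NF-kB target genes were called lower, and so were both at genes of the Toll-like receptor list. Over the lists themselves, 102 of 335 tested peaks of the inflammatory genes were lower and 57 higher (median -0.15). Of 237 peaks of the Toll-like receptor genes, 70 were lower and 34 higher (median -0.12). The shares over all tested peaks were 13.9% and 17.0%. The 1 peak at an interferon-stimulated gene was 10.9 kb upstream of Irf8, a factor needed for monocyte development that is also in the macrophage lineage list (log2 fold change -0.90, edgeR adjusted p = 1.1e-09). Over the interferon list 18 of 157 tested peaks were lower and 19 higher (median -0.11).

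Among transcription factors, the AP-1 and EGR list had 4 of the peaks. Egr1 is induced within minutes by growth and stress signals. A peak 5.73 kb upstream of it read 17.6, 21.6, 22.5 and 22.8 CPM in KO vehicle, 11.5, 12.6, 13.0 and 14.8 CPM in KO Dex, and 6.29, 5.78, 6.83 and 6.08 CPM in KO IL4. The 3 groups were separate, with IL4 lowest. The IL4 change was -1.81 ± 0.11 (log2, SE; edgeR adjusted p = 1.32e-25) and the Dex change -0.64 ± 0.10 (edgeR adjusted p = 1.67e-07). On the rule's scale its WT Dex value of -0.498 was one of the 3 nearest to the limit, so it is an IL4-only peak by a small margin.

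The related Egr3 promoter peak fell from 12.9 to 5.95 CPM in KO (log2 fold change -1.18, edgeR adjusted p = 3.98e-14). Peaks 39.9 kb from Fos and 100.5 kb upstream of Fosl2, genes of the AP-1 family of dimeric activators, changed by -1.46 and -1.04 (edgeR adjusted p = 2.04e-09 and 7.9e-08). The Fos peak was also called lower with Dex (-0.47, edgeR adjusted p = 0.0423), and those of Egr3 and Fosl2 were not (-0.29 and -0.09, edgeR adjusted p = 0.052 and 0.728). The Fosl2 peak lies inside the neighbouring gene Babam2. All 4 peaks at genes of the AP-1 and EGR list were called lower. Over the list 74 of 269 tested peaks were lower and 51 higher, beside 13.9% and 17.0% of all tested peaks. Nab1, a corepressor that binds EGR proteins, had a promoter peak with 35.5, 37.0, 35.8 and 40.5 CPM in KO vehicle and 19.6, 18.1, 19.5 and 21.8 CPM in KO IL4 (log2 fold change -0.96 ± 0.08, SE; edgeR adjusted p = 2.91e-17). Of the macrophage lineage list, the second peak, at Tfeb, a factor of lysosome genes, was not called (2.04 against 1.48 CPM, edgeR adjusted p = 0.125). Over that lineage list more tested peaks were higher (100 of 437) than lower (60), with a median of 0.01.

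Genes of TGF beta signalling had 4 of the peaks, and all 4 were called lower in KO. Smad3, which carries the signal to the nucleus, had a strong peak inside the gene (chr9:63705942-63706873), with 44.3, 48.8, 41.3 and 50.0 CPM in KO vehicle and 20.8, 22.7, 23.4 and 25.3 CPM in KO IL4. The IL4 change was -1.05 ± 0.13 (log2, SE; edgeR adjusted p = 3.05e-06). KO Dex, at 30.7, 34.1, 33.4 and 30.5 CPM, lay between them and was lower than vehicle by -0.48 ± 0.13 (edgeR adjusted p = 0.0142); in WT this was the peak nearest to the Dex limit. Smad7 and Skil, both inhibitors of the pathway, and Ltbp1, which holds the latent ligand in the matrix, had peaks at -1.10, -1.07 and -0.98 (edgeR adjusted p = 3.24e-13, 6.17e-09 and 2.49e-05). The Smad7 peak was also called lower with Dex (-0.34, edgeR adjusted p = 0.0196), whereas those at Skil and Ltbp1 were not. Over that list 52 of 252 tested peaks were lower and 45 higher, beside 13.9% and 17.0% of all tested peaks.

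The cell cycle list had 2 peaks, at the factors E2f3 and E2f2, both called lower (log2 fold change -0.96 and -0.74, edgeR adjusted p = 1.58e-07 and 1.49e-05); over the list 48 of 194 tested peaks were lower and 33 higher. With Dex the E2f3 peak was called higher (0.47, edgeR adjusted p = 0.00509). The adhesion and motility list had 4, of which 3 were called lower, while over that list 117 of 726 tested peaks were lower and 137 higher (median -0.03). Vav1, a guanine nucleotide exchange factor, had 2 of them, 1.4 kb and 20.6 kb from its start (log2 fold change -0.67 and -1.18, edgeR adjusted p = 3.62e-06 and 1.72e-08), and the farther one was also called lower with Dex (-0.54, edgeR adjusted p = 0.0088). Arhgef3, another exchange factor, had a peak 12.1 kb upstream of its listed start with 2.28 against 1.41 CPM (edgeR adjusted p = 0.013), a call that ended without KO vehicle replicate 4 (0.0522) or without KO IL4 replicate 3 (0.0601). The peak at the adhesion molecule gene Vcam1 was not called (1.60 against 1.05 CPM, edgeR adjusted p = 0.101).

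None of the 566 peaks was assigned to a gene of the list of 34 IL4 and STAT6 targets such as Arg1, Retnla and Mrc1. Over that list 135 of 364 tested peaks were higher in KO IL4 and 33 lower, with a median of 0.24. The list of glucocorticoid receptor targets had 2 peaks, both at Irak3 and described above; over that list 61 of 360 tested peaks were lower and 81 higher (median 0.00). The gene lists were written with earlier results of these data known, so these counts describe them and are no independent evidence.

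Other large falls in KO lay at genes of varied function. Of the 10 largest KO falls, 5 were also called lower with Dex in KO: those at Fpr1, Pde4d, Egr1, Gm10649 and Gsr. The share called lower with Dex was 11.6% of the 561 and 6.63% of all tested peaks. The 10 were picked as extremes, and both contrasts share the KO vehicle libraries, so high vehicle readings favour both calls. Pde4d, a phosphodiesterase that degrades cAMP, had a peak inside the gene (chr13:109819173-109819352) with 6.09, 5.25, 4.90 and 4.54 CPM in KO vehicle and 2.33, 1.08, 1.20 and 1.52 CPM in KO IL4. No library overlapped, and the change was -1.82 ± 0.21 (log2, SE; edgeR adjusted p = 5.28e-12); Dex changed it by -0.70 (edgeR adjusted p = 0.00196). Gsr, glutathione reductase, had an intragenic peak that fell from 6.13 to 2.01 CPM (log2 fold change -1.69, edgeR adjusted p = 1.91e-12), and Dex changed it by -0.67 (edgeR adjusted p = 0.00133). The peak 80.6 kb upstream of Irs2, an adaptor of the insulin and IL4 receptors, was weak, at 1.69 ± 0.249 against 0.494 ± 0.246 CPM (SD, n = 4 each; log2 fold change -1.83, edgeR adjusted p = 1.64e-05). The other 5 of the 10 largest falls lay near the predicted genes 2210414B05Rik and Gm10649, or at 3 peaks with no assigned gene, with log2 fold changes from -1.82 to -1.67.

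The peaks with the largest WT falls were described in KO as well. At Wdfy3, a scaffold gene of selective autophagy, a peak inside the gene read 4.70, 3.69, 3.97 and 3.81 CPM in KO vehicle and 1.32, 1.39, 1.11 and 1.44 CPM in KO IL4 (log2 fold change -1.63 ± 0.22, SE; edgeR adjusted p = 4.01e-09). Dex changed that peak by -0.77 (edgeR adjusted p = 0.00251). The peak 42.9 kb upstream of Rufy1, an endosomal trafficking gene, was lowered less, from 4.59 to 2.63 CPM (log2 fold change -0.83, edgeR adjusted p = 0.000408). A peak 15.3 kb upstream of Amz2, a metallopeptidase gene, fell from 13.3 to 5.81 CPM (log2 fold change -1.23, edgeR adjusted p = 0.00464). The strongest of this group, chr5:142901437-142903132 with no assigned gene, fell from 83.6 ± 16.9 to 42.8 ± 4.30 CPM (SD, n = 4 each; edgeR adjusted p = 1.12e-05).

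Promoter peaks with the highest levels also fell. Bnip3 encodes a mitochondrial receptor for mitophagy that hypoxia induces. Its promoter peak (chr7:138909134-138910220) read 67.3, 71.7, 66.3 and 77.8 CPM in KO vehicle, 70.9, 66.4, 70.4 and 72.7 CPM in KO Dex, and 39.7, 35.5, 38.3 and 36.9 CPM in KO IL4. Dex and vehicle overlapped and all IL4 libraries lay far below them. IL4 changed it by -0.96 ± 0.07 (log2, SE; edgeR adjusted p = 1.97e-21) and Dex by 0.03 ± 0.06 (edgeR adjusted p = 0.81). The promoter of Trim59, a ubiquitin ligase gene, changed by -0.92 (edgeR adjusted p = 1.42e-17). The promoter peak of the histone gene Hist1h3g changed by -0.79 (edgeR adjusted p = 1.96e-05) and those of Hist1h4k and Hist2h3c1 by -0.86 and -0.68 (edgeR adjusted p = 4.14e-11 and 6.89e-07). Histone genes have near-identical copies, so their counts are uncertain where reads could be shared between copies.

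A few peaks did not repeat in KO. The Slc4a4 promoter, of a sodium bicarbonate cotransporter gene, read 4.16, 3.62, 3.53 and 4.84 CPM in WT vehicle and 1.35, 2.17, 1.56 and 3.17 CPM in WT IL4, the values that chose it. In KO it read 4.57, 3.12, 4.50 and 4.17 CPM with vehicle and 4.56, 3.47, 3.69 and 4.64 CPM with IL4. The KO groups overlapped throughout, with a log2 fold change of -0.01 ± 0.18 (SE; edgeR adjusted p = 0.979). The other 3 of the 4 least lowered peaks, near Hdac11, Zfp868 and AV064505, were under 1 CPM in KO vehicle, with log2 fold changes of 0.70, 0.20 and -0.03 and edgeR adjusted p from 0.225 to 0.969. They were picked as extremes of 561 values, and the genotype difference at them was not tested because WT values chose the peaks.

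Dex changed a minority of the peaks in KO, in both directions. Of the 561 tested, 65 (11.6%) were lower and 42 (7.49%) higher than KO vehicle (edgeR adjusted p below 0.05), where 6.63% of all tested peaks were lower and 6.97% higher. The median log2 fold change was -0.07. With library totals alone in place of TMM scaling the split was 89 lower and 35 higher. The count of 65 fell to 36 without KO vehicle replicate 2. KO Dex and KO vehicle libraries did not overlap at 115 of the 566 peaks (20.3%), against 14.3% of all peaks. Because the rule held the WT Dex value within 0.5 of vehicle, a small KO Dex change at most of them repeats in other libraries what the rule required in WT. That limit applied to the rule's scale. The fitted WT Dex log2 fold changes of the 561 ran from -0.852 to 0.683, with a median of -0.145.

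Peaks higher with Dex and lower with IL4 in KO were looked at after their values were seen, and both contrasts share the KO vehicle libraries. At Icosl, which encodes a ligand of the T cell costimulator ICOS, the promoter peak (chr10:78068928-78070142) read 19.8, 22.2, 22.2 and 23.9 CPM with vehicle, 29.0, 28.0, 22.6 and 25.9 CPM with Dex, and 10.5, 8.09, 10.6 and 9.83 CPM with IL4. Dex overlapped vehicle at 1 library and IL4 lay below both. IL4 against Dex was -1.53 ± 0.09 (log2, SE), a description with no test, since opposite calls for Dex and IL4 chose these peaks and so fixed its direction. Pid1, whose product binds a lipoprotein receptor and modulates insulin signalling, had 3 of the peaks, and IL4 against Dex gave -1.72, -1.37 and -1.22 at them. Near Arrb2, the beta-arrestin 2 gene of receptor desensitisation, and Trem1, an amplifier of inflammatory signals, the same difference was -1.31 and -1.08.

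Set directly against Dex in KO cells, IL4 gave lower values at 458 of the 561 peaks and higher values at 0 (edgeR adjusted p below 0.05; 478 at an unadjusted p below 0.05 in either direction). Among all tested peaks, 20.4% were lower and 21.9% higher. The median log2 difference was -0.79, and 548 of 561 were below 0. Scaling by library totals alone gave 429 lower and 0 higher; over all tested peaks that scaling turned 26484 lower and 28548 higher into 19246 and 33460, with a shift of the median of all peaks to 0.09.

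Most of the peaks lie at a distance from promoters. Of the 566, 472 had an assigned gene, 437 genes in all, and 94 had none. The 94 include the peak at the Irak3 start described above. Peaks near a start can therefore be missing from the shares below, which cover assigned peaks alone. Of the 472, 43 (9.11%) were within 1 kb of the start, 30.5% at 1 to 10 kb, 41.9% at 10 to 50 kb, 9.96% at 50 to 100 kb and 8.47% farther. Among all assigned peaks 13.2% were within 1 kb. Among 847 peaks that met the same IL4 rule in WT but were also lowered by Dex by 0.5 or more, that share was 2.91% of 687 assigned. In the authors' deposited table the median distance was 16.7 kb for the 409 of these peaks it holds, 17.9 kb for all its peaks and 27.2 kb for those lowered by both agents.

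Peaks near a start had the highest levels. The 43 within 1 kb had a median KO vehicle level of 13.7 CPM and a median KO fold change of -0.93 (log2), and 37 of them were called lower. The 198 peaks at 10 to 50 kb had a median of 5.51 CPM and -0.84, with 176 of 197 tested called lower. The 94 peaks without an assigned gene, the one at the Irak3 start among them, were the weakest, at a median of 2.61 CPM. Of these, 69 of 91 tested were called lower. The other classes, at 5.26 to 6.25 CPM, had 90% to 97.9% of their tested peaks called lower, against 86.0% within 1 kb and 75.8% without a gene. The median KO fall was of similar size in every distance class, from -0.81 to -0.93, and the share called did not follow the level across them.

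The middle of the peak was inside a protein-coding RefSeq gene at 285 of 566 (50.4%), against 56.8% of all peaks. A FANTOM enhancer, a region with bidirectional short transcripts, was marked in the authors' deposited table at 89 of 409 peaks (21.8%), against 13.8% of all peaks there and 13.6% of those lowered by both agents. Of the 89, 86 were called lower in KO, at a median of 9.31 CPM in KO vehicle. The peaks were longer (median 486 bases) than all peaks (392 bases) and higher in WT vehicle (median 5.94 against 2.25 CPM). The rule needs counts to be met, and the part of level in the shares of enhancers, distances and lengths was not tested.

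Some of the peaks lie close together. Of the 566, 49 had another within 10 kb, 106 within 50 kb and 157 within 100 kb. Chromosome 17, which carries the Has1 to Fpr2 stretch, held 36 (6.36%, against 4.43% of all peaks), chromosome 5 held 47 (8.30% against 6.32%), and the X chromosome held 19 (3.36% against 1.99%). There were 32 genes with more than 1 peak and 3 genes with 3: Nfkbiz, Pid1 and the predicted gene Gm1653. Of the 19 other tested peaks nearest to Pid1, 14 were called lower in KO IL4 and 0 higher. At Fyb, an adaptor of immune receptor signalling with 2 of the peaks, 15 of 22 other peaks were lower and 0 higher, whereas at Icosl 2 of 6 others were lower and 3 higher; both were picked after seeing the values.

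The neighbourhood of the peaks shifted with them. Among other tested peaks within 2 kb of one of the 566, 43.5% of 248 were called lower in KO IL4 and 4.44% higher. The share lower was 34.6% at 2 to 5 kb, 27.5% at 5 to 10 kb, 24.4% at 20 to 50 kb and 18% at 50 to 100 kb. Beyond 100 kb it was 12.7% of 118405 peaks. The median log2 fold change went from -0.34 within 2 kb to -0.09 at 50 to 100 kb. Neighbouring peaks can be pieces of one accessible region, so these shares are descriptions, with no test.

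**Figure D4:**
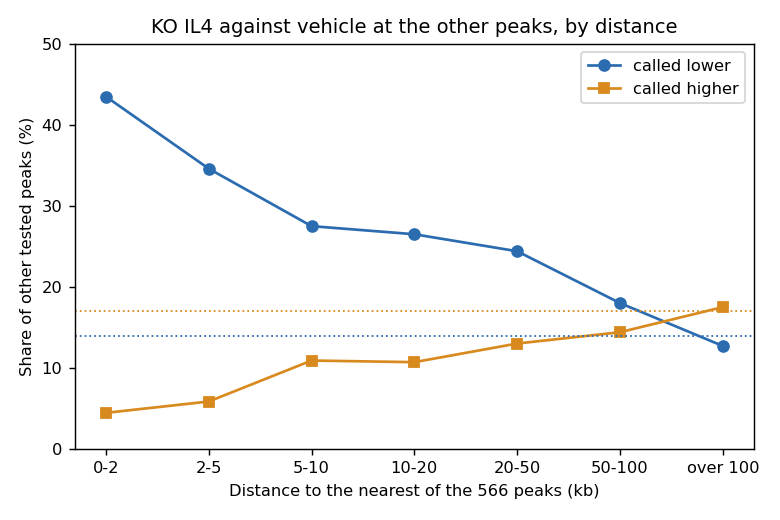
Share of tested peaks outside the 566 that were called lower (circles) or higher (squares) in KO IL4 against KO vehicle (vertical axis, %), by distance to the nearest of the 566 (horizontal axis, kb). The share lower runs from 43.5% within 2 kb to 12.7% beyond 100 kb; dotted lines mark the shares over all tested peaks, 13.9% lower and 17.0% higher.

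The limits of the rule cut through a continuum. Just inside the IL4 threshold were peaks near Mir7231 and Gm6377 (-0.8003 and -0.8004) and one with no assigned gene (-0.8012), and just outside were peaks near Rnf141 (-0.7994), Mir6339 (-0.7987) and Tmed10 (-0.7979). Just inside the Dex limit were the Smad3 peak (-0.499), the Egr1 peak (-0.498) and one with no assigned gene (-0.498), and just outside were peaks near Tmem163 (-0.500), Batf (-0.501) and Tmsb4x (-0.503). In all, 507 peaks missed only the IL4 threshold and by under 0.1, 874 failed only the Dex limit, 847 of these as lower with Dex, and 32 failed only because WT libraries overlapped.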

How the data were processed

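The data are ATAC-seq of 24 libraries, 6 groups of 4. The authors deposited raw read counts per peak (unit: counts, not normalized), made with fastp, Bowtie2, SAMtools, MACS2, featureCounts and edgeR on mm10, per the submitters' processing notes, which give no role or version for each. The deposited table of comparisons with log2 fold changes, nearest start sites and enhancer marks was used for annotation. Its fold changes for KO IL4 against KO vehicle also served to check the scale of those fitted here (slope 1 over 71942 peaks). Library totals were 5820149 to 21939330 counts, and this number limits the precision at weak peaks.

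The 566 peaks and the gene lists were chosen with earlier results of these data known. Where the deposited table gave no gene (63 peaks), the nearest listed start within 50 kb was used, except where a gene absent from the table ended closer by; 94 peaks have none. Counts were fitted with edgeR 4.0.16 in R 4.3.3 (TMM scaling, filterByExpr, robust quasi-likelihood fit, 6 group means), with Benjamini-Hochberg adjustment over 130103 peaks and a threshold of 0.05. The code was tested on simulated data. Some markers of the cell type lists are not reported here. No replicate pair of a group held identical values (lowest chi-square per degree of freedom 1.10). Named peaks were the 10 largest KO falls, the 6 largest WT falls, the 4 least lowered in KO, the 6 highest within 1 kb of a start, up to 4 per gene list, and 3 on each side of each threshold. Alternatives were DESeq2 1.42.0, other scalings, no filter, KO groups only, a replicate block, other limits of the rule and leaving out each library.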

Additional observations from a re-analysis of the deposited data

Results flagged for a closer look

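Among 162 groups of 4 libraries at the named peaks, 7 held a library whose gap to the nearest other, as a share of the range, was above Dixon's 95% critical value for 4 samples; chance alone marks about 5% of groups. The ratio was 0.978 at the Nlrp3 peak in KO IL4, where 1 library read 6.24 CPM beside 4.76 to 4.80 CPM. At the Fos peak in KO IL4 it was 0.955 (3.04 CPM beside 2.08 to 2.12 CPM). The Egr3 peak in KO vehicle gave 0.93 (14.6 CPM beside 12.3 to 12.4 CPM), and the Rufy1 peak in KO vehicle gave 0.852 (3.94 CPM beside 4.76 to 4.90 CPM). The Vav1 peak 20.6 kb from its start gave 0.975 in KO Dex (3.76 CPM beside 4.20 to 4.21 CPM). Among peaks with no assigned gene, chr5:142901437-142903132 gave 0.869 in KO IL4 (49.2 CPM beside 40.2 to 41.3 CPM) and chr13:104448408-104448624 gave 0.868 in KO Dex (0.602 CPM beside 0.953 to 1.01 CPM). Each of these 7 peaks except that on chromosome 13 was above 2 CPM in KO vehicle, and all 7 were called lower in KO IL4.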

How the results depend on the processing

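The count of peaks lower in KO IL4 than in KO vehicle (497) was 480 with DESeq2, 489 to 514 under 3 other scalings, 496 without the low-count filter, 498 with KO groups alone and 467 to 493 with 1 library left out. The labels do not say whether equal replicate numbers mark paired libraries, and the reported fit ignores the numbers. Same-number correlations were small, from 0.00337 to 0.145, but 11 of 12 were the highest for their library, a hint of pairing from the data. With a replicate block the counts were 500 for IL4 against vehicle, 464 for IL4 against Dex, and 73 lower and 45 higher for Dex. Peaks lower in KO Dex (65) were 42 with DESeq2 and 36 to 64 with 1 library left out, the lowest without KO vehicle replicate 2; the cause was not tested. Peaks lower in KO IL4 than in KO Dex (458) were 441 with DESeq2 and 434 to 454 with 1 library left out. Membership moved most: 341 peaks with a pseudocount of 1, 848 with 0.25, 1073 with an IL4 threshold of -0.7, 151 with -1, 347 with a Dex limit of 0.3, and 543 to 727 with 1 WT library left out. On TMM-scaled CPM 842 peaks met the rule, 563 of them among the 566, and 722 of 834 tested were lower in KO IL4. Of 52 named peaks, 45 were called lower. Single peaks were followed under library totals alone, loess offsets, DESeq2, a replicate block, and without each KO vehicle or KO IL4 library. In all of these runs 44 of the 45 kept call and direction, the exception being Arhgef3. The other alternatives were not looked at for single peaks. The uncalled Slc4a4 and AV064505 peaks, near 0, took either sign. Without WT Dex replicate 2, an alternative chosen after seeing the data, the counts were 498, 64 and 462. Motif shares over whole or central peak sequence were not run, since no genome was used here. Of the 64 uncalled peaks, 36 lay under 2 CPM, and the part of depth in them was not tested.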

Other observations

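Among the 43 peaks within 1 kb of a start, several promoters not described above fell in KO IL4; they were picked after their values were seen. Phf19, which encodes a Polycomb-associated reader of histone methylation, fell from 23.7 ± 2.16 to 10.9 ± 0.485 CPM (SD, n = 4 each; log2 fold change -1.18, edgeR adjusted p = 2.5e-18). Gcnt1, an enzyme gene of O-glycan branching on selectin ligands, fell from 11.7 ± 0.926 to 5.10 ± 0.412 CPM (SD, n = 4 each; log2 fold change -1.24, edgeR adjusted p = 8.24e-12). Marcksl1, a regulator of actin at the membrane, fell from 24.4 to 11.9 CPM, and Lrp8, a lipoprotein and reelin receptor gene, from 22.2 to 11.2 CPM (edgeR adjusted p = 2.3e-08 and 6.84e-16). At these 4 promoters the KO Dex change was small, from -0.02 to 0.26 on the log2 scale, with edgeR adjusted p from 0.126 to 0.973.

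The 6 promoter peaks that were not called in KO were Slc4a4 and, with lower levels, Csf3, Bex3, Lrrc2, Smpd4 and Mir130a. At Csf3, the gene of the granulocyte colony-stimulating factor, the KO vehicle and KO IL4 means were 3.80 ± 0.887 and 2.56 ± 0.399 CPM (SD, n = 4 each; log2 fold change -0.60 ± 0.46, SE; edgeR adjusted p = 0.368). Csf3 had the widest standard error of these 6.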
